A study of Homo sapiens with 24 samples.

Results

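U87 MG cells, an established human glioblastoma line, were irradiated with 2 Gy of protons, collected 24 hours later and compared with untreated cells of the line. Of the 24 scans in the series, 6 carry the label of 2 Gy without Si306. The scan labelled replicate 5 was left out, because its header names an array of the 10 Gy dose. The 5 scans kept are repeated scans of 2 arrays, and scans of 1 array were averaged. On each array the irradiated RNA was labelled with Cy5 and the untreated RNA with Cy3, so every value is a log2 ratio of irradiated over untreated, in which 1 is a 2-fold rise.

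The study set protons alone at 2 Gy and 10 Gy against protons combined with Si306, a small inhibitor of Src kinases given at 10 micromolar, to describe the transcripts that change with each. Untreated cells were the control at both doses of protons alone, which therefore share that kind of control. The combined treatments had the cells irradiated alone at the same dose as their control. Their arrays enter here through the estimate of the spread and the choice of tested probes. They also enter the average intensity over all 8 arrays, which picks each gene's brightest probe, and the same-dye comparison. The labels number 6 biological replicates per treatment while the headers show 2 arrays, and no source states whether those arrays hold separate cultures. The p-values therefore measure the spread between these arrays alone, which may be technical. No array had the dyes exchanged, so the dye and the treatment cannot be told apart at any single probe.

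Ionising radiation breaks DNA, and the breaks activate the kinase ATM. As background, damaged cells then turn on genes such as CDKN1A, an inhibitor of cyclin-dependent kinases.

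In the 5 scans, 60.6% to 62.5% of the spots were well above background in Cy3 and 65% to 68.8% in Cy5, with median signals of 102 to 125 and of 156 to 209 scanner units. Between scans of the same array the log2 ratios of single spots had a median SD of 0.0856, and between scans of the different 2 Gy arrays 0.137. After averaging, the arrays differed by a median of 0.0612 per probe, and 18 of 30393 tested probes differed by more than 1.

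The label was checked against marker genes in the untreated RNA. All 8 mesenchymal glioblastoma markers, among them the intermediate filament gene VIM and the hyaluronan receptor CD44, were well above background on both arrays. Of 7 astrocyte and glial markers 3 were (GFAP, NES and SLC1A3), whereas S100B, AQP4, OLIG2 and SOX2 were not. The neuronal genes SYT1, SNAP25, NEFL and GAD1 were detected, 4 of the 5 on the array, and so were the myeloid genes CSF1R, CD14 and TYROBP, 3 of 6. The leukocyte gene PTPRC and the microglial gene AIF1 were not well above background. None of 4 endothelial markers was, and of 4 oligodendrocyte markers only MAG was. CDKN2B, which lies in the region that U87 MG is known to have lost, was not detected, and its neighbour CDKN2A was detected on 1 of 2 probes. Of the detected markers of other cells, CSF1R (0.39) and MAG (0.21) were higher at 2 Gy, SYT1 (-0.49), GAD1 (-0.31) and NEFL (-0.21) were lower, and CD14 (0.05), TYROBP (0.08) and SNAP25 (0.04) did not pass the test. Their part in the other results was not tested.

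RNA labelled as irradiated alone was also hybridised in Cy3, on the slide with the combined treatments, and this RNA stood apart. After quantile normalization of Cy3, the RNA labelled 2 Gy on that slide differed from untreated RNA with an SD across probes of 1.03, while the untreated RNA of the 10 Gy arrays differed from that of the 2 Gy arrays with an SD of 0.101. On the slide with the combined treatments, the RNA labelled 10 Gy differed from that labelled 2 Gy with an SD of 0.0991, no more than untreated RNA from untreated RNA. GDF15, a secreted stress cytokine, had a Cy3 level of 15.66 in untreated RNA on the 2 Gy arrays and 7.65 in the RNA labelled 2 Gy on the other slide, and CDKN1A 12.11 and 9.38. For that reason the ratios below compare Cy5 with Cy3 on the same array, unless a comparison across the slides is named. In a same-dye comparison across the slides, 36 of 65 named genes with an adjusted p under 0.05 had the opposite sign and 26 the same sign with an adjusted p under 0.05. Slide and treatment cannot be told apart in that comparison. With the slide of the 2 Gy and 10 Gy arrays fitted alone, 65 genes changed at least 2-fold on probes under 60% GC (64 with all arrays), 28 at least 1.5-fold on every such probe (28), 110 probes of at least 60% GC at least 2-fold (110), and 32 named genes differed between doses (36).

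The change at 2 Gy was broad and shallow. Of 21950 genes, each represented by its brightest tested probe under 60% GC, 6849 (31.2%) were higher and 5609 (25.6%) lower by limma with an adjusted p under 0.05. At least 1.5-fold, 485 genes (2.21%) rose and 186 (0.847%) fell. At least 2-fold, 55 (0.251%) rose and 9 (0.0410%) fell, with 15 falls without array 1 and 5 without array 2. The median over all genes was 0.02. When each scan was only centred on its median, without the intensity-dependent loess curve, that median moved to 0.26 and 69% of the called genes were higher, against 55% with the curve. Under this centring 968 genes were at least 2-fold higher and 4 lower. With the scanner software's own log ratio the balance of called genes turned, with 5599 higher and 6316 lower (47% higher), and at least 2-fold 445 were higher and 207 lower.

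Some changes were seen on more than 1 probe. Of 5167 genes with at least 2 tested probes under 60% GC that share no stretch of 20 bases, 21 (0.406%) rose and 7 (0.135%) fell at least 1.5-fold on every such probe by the mean, with the same sign on both arrays. By the smallest probe the largest rises were those of LOC407835 (1.09), PPP1CA (1.05), the deubiquitinase BAP1 (1.02) and the mRNA export adaptor ALYREF (1.00), and CTNNB1, which encodes beta-catenin, was 7th (0.85). The falls were led by the amino acid transporter SLC38A2, the transcription inhibitor EID1 and NAMPT, the enzyme of the NAD salvage route. Just inside the limit lay IFRD1 (-0.59), AGAP3 (0.59) and FBXL12 (-0.59) by their smallest probe, and just outside HKDC1, DCLRE1C and GOLGA4 (each -0.57).

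PPP1CA, a catalytic subunit of protein phosphatase 1, read 1.07 on array 1 and 1.06 on array 2 with its brightest probe, and 1.00 and 1.11 with the other. The means were 1.07 (SE 0.04) and 1.05 (SE 0.04), with limma adjusted p of 5.37e-09 and 8.98e-09. CTNNB1 read 1.43 and 1.41 with its brightest probe but 0.73 and 0.96 with the second, means of 1.42 (SE 0.03, adjusted p 7.74e-11 by limma) and 0.85 (SE 0.05, adjusted p 9.78e-08). Both of its probes are AT-rich and the 30-base stretches of highest GC are shown to make that visible, beside that of the less GC-rich PPP1CA probe. Capitals mark the longest run of G and C. The stretches lie at chr3:41256775-41256804 and chr3:41256285-41256314 on the plus strand and at chr11:66924890-66924919 on the minus strand, in build hg17, whose annotation was not at hand to place them in exons.
CTNNB1 brightest probe: tgtatGGGtagggtaaatcagtaagaggtg
CTNNB1 second probe: actttttgttctGGtcctttttggtcgagg
PPP1CA second probe: GGCGGtttccctcccgagagcaactacctc

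BAP1 read 0.90 and 1.15 with its brightest probe and 1.06 and 1.09 with the other. ALYREF read 0.98 and 1.16, then 1.02 and 0.97. The lowest of the 8 readings of BAP1 and ALYREF was 0.90. EIF5A, a translation elongation factor, had means of 0.92 and 1.02 on its probes, and SLC35H1, a solute carrier, 0.85 and 1.01. GRINA, a membrane protein of the glutamate receptor-associated family, had 0.89 and 0.82, and SNX17, a sorting nexin of endosomal recycling, 0.77 and 0.94. RRAD, a small GTPase, had 0.75 and 1.08, and GPAT4, which starts glycerolipid synthesis, 0.74 and 0.79. The other risers of the 21 were KPNB1, PFKL, TSC22D4, IER2, FSCN1, SRSF6, SLC43A3, FLOT1, AFG3L2, AGAP3 and LOC407835. FSCN1, which bundles actin, read 0.47 and 0.82 on its brightest probe, so array 1 alone would lie under the limit. A probe also fell short of it on 1 array for AFG3L2 (0.57), AGAP3 (0.56) and SRSF6 (0.58). Among the genes that fell, so did FBXL12 (-0.55) and IFRD1 (-0.55).

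SLC38A2 fell on both arrays, to -0.94 and -0.93 with its brightest probe and -0.71 and -0.79 with the other. NAMPT had 3 probes, with array values of -0.81 and -0.74, -0.88 and -0.91, and -0.76 and -0.66. The means of its probes were -0.78 (SE 0.04), -0.90 (SE 0.03) and -0.71 (SE 0.04), with limma adjusted p of 5.01e-08, 4.60e-09 and 8.55e-08. SMS, spermine synthase, had means of -0.83 and -0.66, and EID1 -0.84 and -0.74. FBXL12, a ubiquitin ligase subunit, had -0.61 and -0.59. GNAS, the stimulatory G protein alpha subunit, had -0.62 and -0.61, and IFRD1, a transcription coregulator, -0.59 and -0.63. With median centring alone the brightest probes of GNAS (0.14) and IFRD1 (0.05) turned to values above 0.

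**Figure D1:**
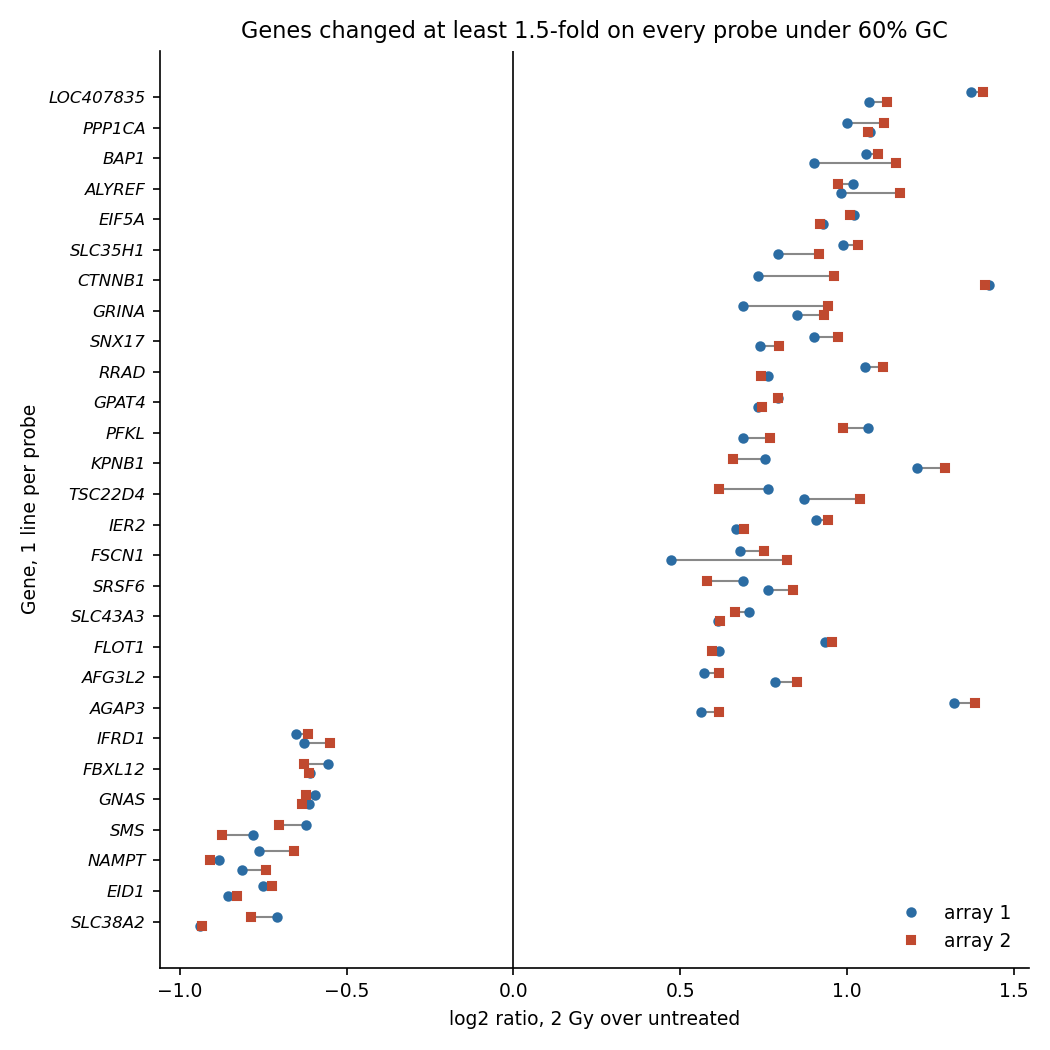
The log2 ratio of 2 Gy over untreated RNA on array 1 (circles) and array 2 (squares), with 1 line per probe, for the 28 genes changed at least 1.5-fold on every probe under 60% GC. The readings of the 21 risers and the 7 fallers do not overlap, as the way they were chosen requires, and the arrays lie close together beside the gaps between some probes, such as those of AGAP3 (0.59 and 1.35).

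The plot of the concordant probes shows how close the arrays came. The probes of the risers had a median GC of 50.8% and a median average intensity of 8.56 (log2), those of the fallers 41.7% and 13.2, and all genes 43.3% and 8.17. With a limit of 55% GC in place of 60%, 16 genes were concordant, 9 higher and 7 lower. When a loess curve on probe GC was taken off each array, 26 were. With median centring alone 502 genes were concordant, 10 of them lower, and with the scanner software's log ratio 59 were higher and 32 lower. In the same-dye comparison across the slides only 4 of the 21 risers kept their sign on every probe with an adjusted p under 0.05 (CTNNB1, FLOT1, IER2 and SRSF6). FSCN1 kept its sign only by a smallest value of 0.001 and did not pass on every probe. Of the 7 fallers 4 kept sign and adjusted p (EID1, IFRD1, NAMPT and SMS). PPP1CA, BAP1, ALYREF, EIF5A and SLC38A2 were among those that did not keep their sign.

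A second probe often read differently. Of 119 genes at least 1.5-fold higher on their brightest probe, 61 (51.3%) had a second probe higher with an adjusted p under 0.05, 23 had it at least 1.5-fold higher, and 21 had it lower. Of 64 genes at least 1.5-fold lower, 39 (60.9%) had a second probe lower, 11 at least 1.5-fold, and 4 had it higher. Over all 5167 genes, whatever the first probe read, 35.7% had a second probe of the same sign with an adjusted p under 0.05. Another 22.6% had one of the opposite sign, against 17.6% of the 119 and 6.25% of the 64. A second probe of the same sign and at least 1.5-fold was found in 163 of the 5167 (3.15%), against 19.3% of the 119 and 17.2% of the 64. Across the 5167 genes the first and the second probe correlated with a Pearson r of 0.278, a description over genes, which are not independent replicates.

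Of such genes 13 were at least 2-fold higher on the brightest probe. On the second probe 6 of these (46.2%) kept at least 1.5-fold, against 3.15% of all 5167. CTNNB1, ALYREF, PPP1CA, BAP1 and the nuclear import receptor KPNB1 (1.25 and 0.71) had a second probe at least 1.5-fold higher, as had LOC407835 (1.09 and 1.39). CKB, brain-type creatine kinase, read 1.59 and then 0.12, and PES1, a ribosome assembly factor, 1.27 and 0.06. The tubulin TUBB4A read 1.24 and 0.10, and the proteoglycan SDC4 1.12 and 0.08, and the second probes of PES1, TUBB4A and SDC4 did not pass the test. PVR, the poliovirus receptor, kept a smaller rise (1.16 and 0.36), while VAV3, a guanine nucleotide exchange factor, did not pass the test on its second probe (1.14 and 0.02).

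Many other large rises rest on 1 probe under 60% GC. LBX1, a homeobox factor, read 2.12 on array 1 and 2.21 on array 2, a mean of 2.17 (SE 0.04, limma adjusted p 2.54e-11). COX6A2, a muscle-type subunit of cytochrome c oxidase, read 1.55 and 1.56, and FLNA, the actin crosslinker filamin A, 1.36 and 1.51. LINC02907, a long noncoding RNA, read 1.42 and 1.44, and TMED9, a cargo receptor of the secretory route, 1.40 and 1.39. In all 5 the arrays lay close together, but none was higher in the same-dye comparison across the slides. There LBX1 read -0.87, COX6A2 -1.54, FLNA -1.29, LINC02907 -1.12 and TMED9 -0.0051. Further genes at least 2-fold higher included the deoxyhypusine hydroxylase DOHH (1.31), which modifies EIF5A, filamin C (FLNC, 1.23), the immediate early response gene IER5 (1.18), the hyaluronan synthase HAS1 (1.16), the coregulator FHL2 (1.10) and the ligand WNT5A (1.03). These 6 were picked after their values were seen, as were the list members named below beside each list's lowest and highest.

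Falls of at least 2-fold were few, and those of genes with a symbol rested on 1 array. ETV3, a repressor of the ETS family, read -2.00 on array 1 and -0.32 on array 2, and its mean of -1.16 (SE 0.26, limma adjusted p 0.00270) became -0.32 without array 1 and -2.00 without array 2. REXO1 (0.07 and -2.18) and the amino acid transporter SLC38A4 (-0.12 and -2.46), which were noticed after their values were seen, were low on array 2 alone. The other 6 falls belong to sequences that carry no gene symbol.

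Probes of at least 65% GC behaved differently from the rest. Of 1467 tested probes of at least 60% GC, 110 (7.50%) were changed at least 2-fold, 109 of them higher and 1 lower. With median centring alone 205 were higher and none lower, while in the same-dye comparison across the slides the direction turned, with 67 higher and 175 lower. Under 60% GC the share was 99 of 28926 (0.342%). At 60 to 65% GC, the class of most of the 1467 probes, only 8 of 813 were higher (0.984%). The share then rose steeply, from 14 of 267 probes higher at 65 to 70% GC (5.24%) to 87 of 387 at 70% and over (22.5%). Between 30% and 40% GC it was 11 of 9293 (0.118%), and between 50% and 60% 63 of 5957 (1.06%), so that the rises under 60% GC also gathered near the limit. The genes at least 2-fold higher had a median probe GC of 53.3%, and all genes 43.3%.

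**Figure D2:**
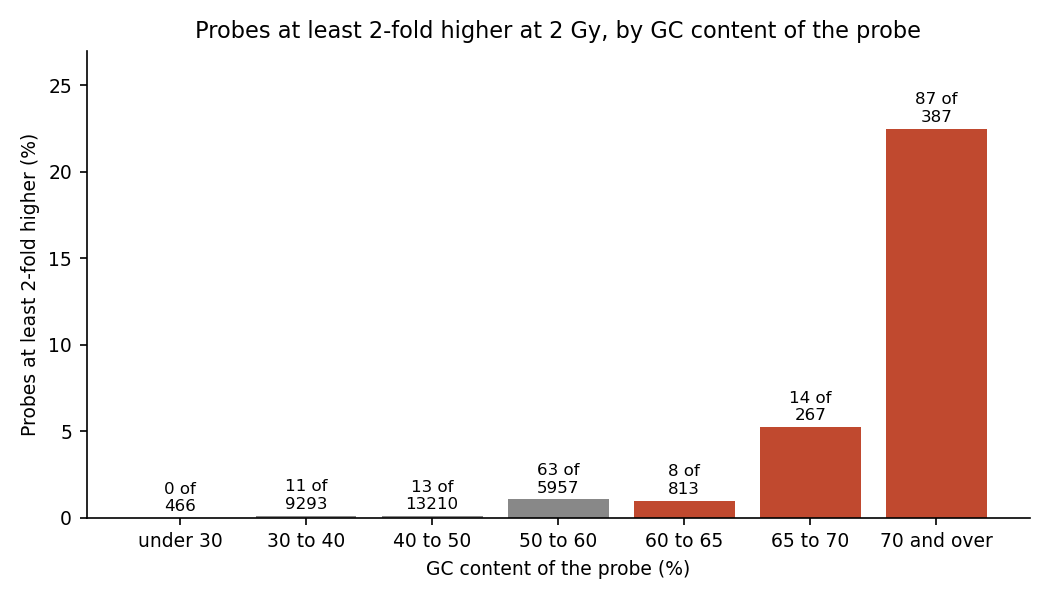
The bars give the percentage of tested probes at least 2-fold higher at 2 Gy (vertical axis, %) in each class of probe GC content (horizontal axis, %), with the number of probes written above. The share is 22.5% at 70% GC and over and at most 1.06% in each class under 60%.

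The bars by GC class count probes, and the genes behind them give a direct comparison. Of the 109 GC-rich probes at least 2-fold higher, 30 belong to genes that also have a tested probe under 60% GC. Their GC-rich probes had a median of 1.79 and the brightest other probes a median of 0.03, from -0.46 to 1.18. Only IER5 was at least 1.5-fold higher on both kinds. Of these 30 other probes 10 were higher and 6 lower with an adjusted p under 0.05. Over all genes 31.2% were higher and 25.6% lower, so these counts lie near those shares. Over all 424 GC-rich probes with such a partner the medians were 0.15 and 0.08.

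The 5 largest rises of this kind among genes with a symbol show it gene by gene. MEX3D, an RNA-binding protein, read 2.29 and 2.37 on the GC-rich probe but 0.15 and 0.29 on its brightest probe under 60% GC. BBC3, which encodes the cell death protein PUMA, read 2.16 and 2.39 against 0.35 and 0.29, and a further probe at 60% GC had a mean of 0.26. The ligand WNT6 read 2.19 and 2.36 against -0.05 and -0.05, and its probe under 60% GC did not pass the test. CASKIN1, a scaffold protein of synapses, had means of 2.22 and -0.14, and the zinc finger protein ZNF467 2.17 and -0.10, the latter not passing the test (adjusted p 0.0869 by limma). Their lower probes leaned on array 2, at -0.27 and -0.21. Without array 2 they read -0.01 and 0.01 and neither passed the test, and without array 1 both did.

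The 30-base stretches of highest GC are shown for both probes of these genes, because the difference between them is the difference between a 4-fold and a near-flat reading. Capitals again mark the longest run of G and C, and coordinates are in build hg17. The GC-rich stretches lie at chr19:1507157-1507186, chr19:52423276-52423305, chr16:2169135-2169164 and chr7:148900021-148900050 on the minus strand and, for WNT6, at chr2:219563785-219563814 on the plus strand. Their partners lie at chr19:1505998-1506027, chr19:52416044-52416073, chr16:2167452-2167481 and chr7:148900903-148900932 on the minus strand and at chr2:219564377-219564406 on the plus strand.
MEX3D GC-rich probe: gaCGGCCGCCCCCGacgactgcgacttcgg
MEX3D other probe: GGCGGGGGCGaggggcgttccaatcaaatt
BBC3 GC-rich probe: cccgctggcctgggggtCCCCGCagccggc
BBC3 other probe: agtctgggagtggggagggatGGCCCagcc
CASKIN1 GC-rich probe: GCCGCCCGGtacgccgccctcgctgggcgc
CASKIN1 other probe: tcgtgtttgctgatccacagtgttGGGCac
ZNF467 GC-rich probe: GCCCCCGCCGCCaagcccctggccagcgcg
ZNF467 other probe: caggaggcagaagaggaggtcgaatGGCCC
WNT6 GC-rich probe: cccgccgtccgcacgctcaaGCCGCCGGGC
WNT6 other probe: GGCCtctggatactgggctccccagaactg

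Runs of G and C were also longer in the probes that rose. At 70% GC and over the median longest run was 9 bases in all tested probes and 11 in those at least 2-fold higher, and at 65 to 70% GC it was 7 and 10. Under 60% GC the medians were the same in both, 5 bases at 50 to 60% GC.

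**Figure D3:**
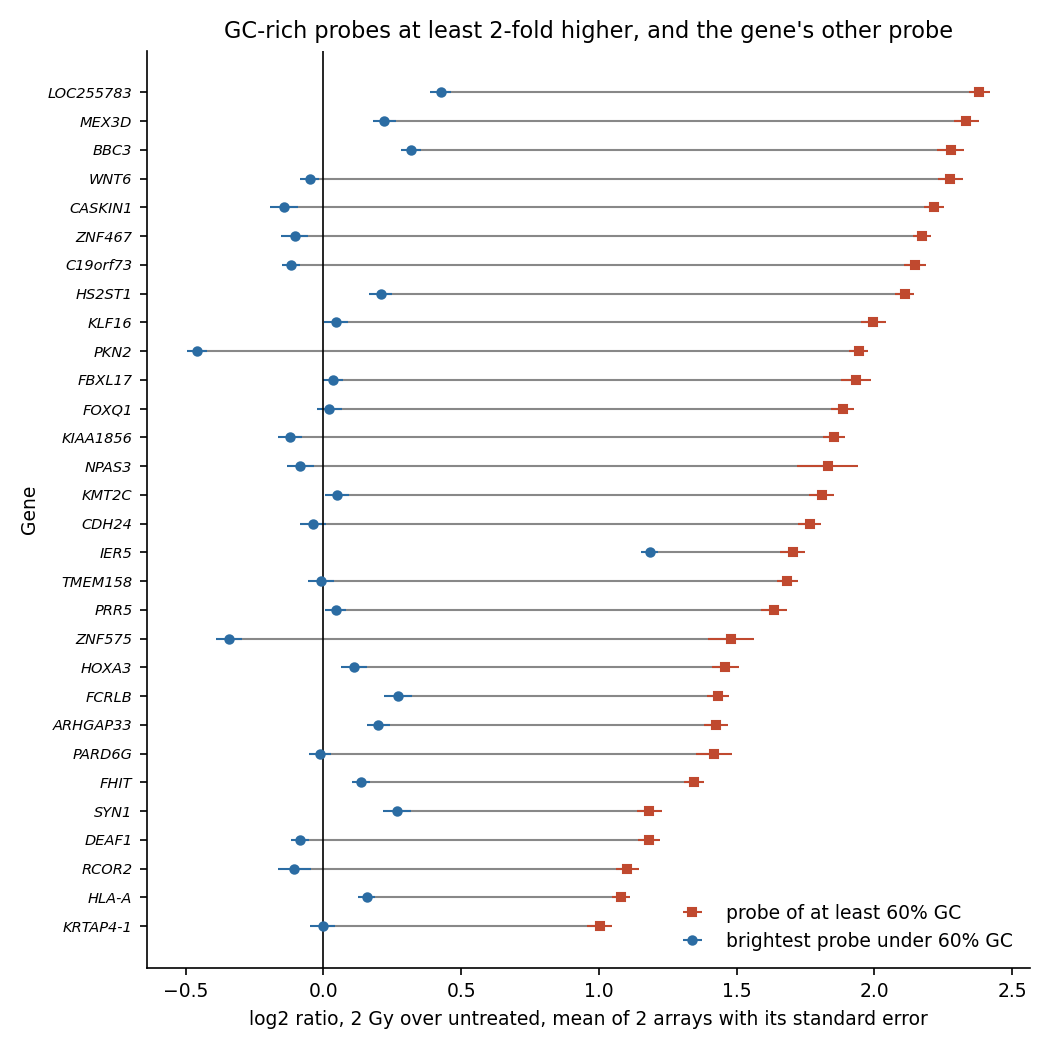
For the 30 genes with a GC-rich probe at least 2-fold higher, the log2 ratio of 2 Gy over untreated RNA on that probe (squares) and on the gene's brightest probe under 60% GC (circles), each with its standard error from limma. The squares have a median of 1.79 and the circles of 0.03, and only IER5 is at least 1.5-fold higher on both.

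In the plot of paired probes the circles sit around 0 for nearly all genes. Gene lists were therefore read from probes under 60% GC, and each list is set beside all genes, of which 31.2% were higher and 25.6% lower.

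Genes known to be induced by DNA damage were mostly higher. Of 33 tested members of 34, 22 (66.7%) were higher and 8 (24.2%) lower, with a median of 0.24 against 0.02 over all genes, and 2 rose at least 1.5-fold. TRIAP1, an inhibitor of apoptosis, read 0.60 and 0.68, a mean of 0.64 (SE 0.04, limma adjusted p 1.38e-07). FDXR, a mitochondrial ferredoxin reductase, read 0.51 and 0.68 (mean 0.60, SE 0.04, adjusted p 3.86e-07 by limma). CDKN1A read 0.38 and 0.39 with its brightest probe and had a mean of 0.67 on its second probe. GDF15 read 0.29 and 0.33 and BTG2, an antiproliferative gene, 0.58 and 0.48. These genes were higher on both arrays, by less than 2-fold.

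Members with lower values were PMAIP1, which encodes the cell death protein NOXA (-0.55 and -0.58), ZMAT3 (mean -0.32), BAX (-0.22) and CCNG1 (-0.17). MDM2, a ubiquitin ligase, read -0.19 and -0.23 with its brightest probe, which turned to 0.15 under median centring alone, and had a mean of 0.05 on its second probe, which did not pass the test. In the comparison across slides described earlier the list's median was -1.02.

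Genes of G2 and mitosis were mostly lower with the loess curve, with a median of -0.29. When scans were only centred on the median it became 0.19, below the 0.26 of all genes under that centring. Across the slides in the same dye it was 0.70. Of 39 tested members of 40, 32 (82.1%) were lower and 5 (12.8%) higher, 6 of them at least 1.5-fold lower. CENPA, the histone variant of centromeres, read -0.89 and -0.98, a mean of -0.94 (SE 0.03, limma adjusted p 5.39e-09). KIF20A, a kinesin of cytokinesis, had a mean of -0.88 and the kinase NEK2 -0.77. CCNB1, cyclin B1, read -0.52 and -0.57, but 0.10 with median centring. The checkpoint kinase BUB1 had a mean of -0.48 and CCNB2, cyclin B2, of -0.29.

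Some members of this list moved little or rose. CDC20, which activates the anaphase-promoting complex, read -0.11 and -0.13 (mean -0.12), turned to 0.42 under median centring, and did not pass the test without array 2 (-0.11). The proliferation marker MKI67 read -0.10 and -0.11, and it did not pass the test without array 1 (-0.11) or without array 2 (-0.10). CDC25B, a phosphatase that activates CDK1, was higher at 0.38 and 0.39, and so were ECT2 (0.33) and AURKB (0.26).

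Promoters of such genes often hold the CHR element, and most members were lower, so the 120 bases before the start of 3 of them are shown from RefSeq, build GRCh38.p14. The letters TTTGAA (CHR) and CCAAT were searched on both strands of the 250 bases before the start. CHR was present in 19 and CCAAT in 29 of the 34 members with a promoter, and both in 17. Of all 35116 promoters 13.3% hold CHR, 32.0% CCAAT and 4.69% both. Capitals mark these letters, and a match describes the sequence only. The stretches lie at chr2:26785936-26786055, chr1:43358861-43358980 and chr5:69167030-69167149, all on the plus strand.
CENPA promoter: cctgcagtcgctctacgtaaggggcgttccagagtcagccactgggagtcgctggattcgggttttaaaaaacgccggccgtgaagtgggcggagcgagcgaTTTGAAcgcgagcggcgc
CDC20 promoter: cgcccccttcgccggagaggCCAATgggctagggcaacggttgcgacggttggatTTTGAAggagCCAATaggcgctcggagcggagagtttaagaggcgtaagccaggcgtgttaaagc
CCNB1 promoter: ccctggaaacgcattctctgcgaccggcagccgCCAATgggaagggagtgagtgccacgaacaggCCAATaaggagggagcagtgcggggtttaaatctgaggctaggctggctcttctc

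**Figure D4:**
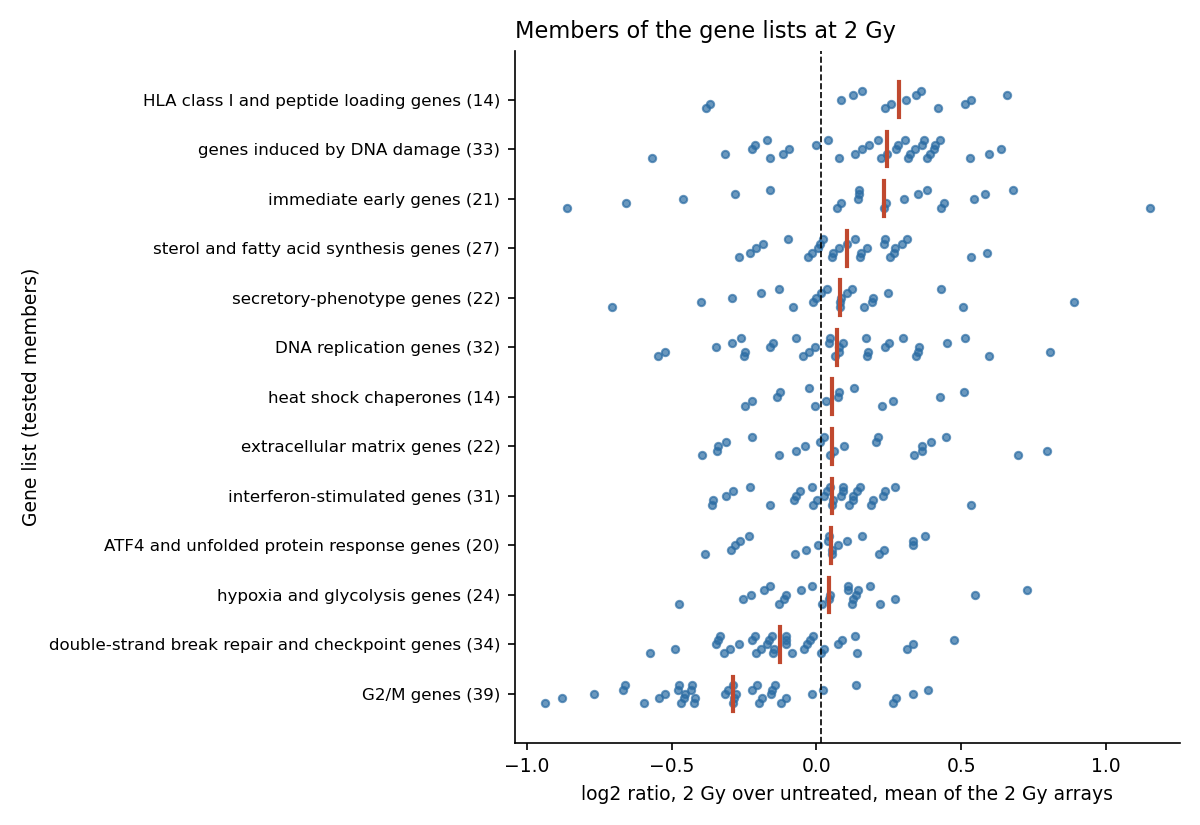
Each circle is the log2 ratio of 2 Gy over untreated RNA of 1 list member, by its brightest probe under 60% GC and averaged over the 2 Gy arrays, and the red bars are the lists' medians. The dashed line is the median over all genes (0.02), with the genes induced by DNA damage at 0.24 and the G2/M genes at -0.29. With median centring alone the G2/M median became 0.19 and that of all genes 0.26. Across the slides in the same dye the medians of these lists were -1.02 and 0.70.

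DNA replication genes split, with 14 of 32 higher (43.8%), 9 lower (28.1%) and a median of 0.07. PCNA, the sliding clamp of DNA polymerases, read 0.80 and 0.82, a mean of 0.81 (SE 0.03, limma adjusted p 7.52e-09). The flap endonuclease FEN1 had a mean of 0.60. RRM2, a subunit of ribonucleotide reductase, read -0.53 and -0.57 on its brightest probe, turned to 0.05 under median centring, and had 0.28 on another probe. MCM2, part of the replicative helicase, read -0.24 and -0.34 and turned to 0.25 under that centring.

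Double-strand break repair and checkpoint genes had a median of -0.13. When scans were only centred on the median it became 0.24, beside 0.26 over all genes under that centring. Across the slides in the same dye it was 0.29. Of 34 tested members 6 (17.6%) were higher and 18 (52.9%) lower, none by 1.5-fold. The checkpoint kinase CHEK1 had a mean of 0.31 and PALB2, a partner in recombination, of -0.49. The DNA-dependent kinase PRKDC read -0.45 and -0.70 on its brightest probe, turned to 0.01 under median centring, and had -0.10 on another probe.

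Immediate early genes moved in both directions, 14 of 21 higher (66.7%) and 5 lower (23.8%), with a median of 0.23. EGR1, a zinc finger factor induced by growth signals, read 1.14 and 1.16, a mean of 1.15 (SE 0.04, limma adjusted p 2.06e-09). IER2 rose on both of its probes (0.68 and 0.93), and EGR2 had a mean of 0.58. FOS, the partner of JUN in AP-1, fell instead, to -0.89 and -0.84, a mean of -0.86 (SE 0.04, adjusted p 1.22e-08 by limma), and KLF4 fell to -0.66. EGR1 and FOS, both known serum response genes, thus lay at opposite ends of the list.

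The 120 bases before the start of EGR1 and FOS are shown for this contrast, from RefSeq in build GRCh38.p14. The CArG box, which reads the same on both strands, was searched in the 250 bases before the start, where 407 of all 35116 promoters (1.16%) and 2 of 17 of the list hold it. EGR1 has 2 in the stretch shown and FOS none, which says only that the letters are not in that window. Capitals mark the box alone, and the stretches lie at chr5:138465359-138465478 and chr14:75278708-75278827 on the plus strand.
EGR1 promoter: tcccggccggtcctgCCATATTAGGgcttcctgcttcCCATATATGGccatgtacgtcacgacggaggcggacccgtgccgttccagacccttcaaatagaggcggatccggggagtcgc
FOS promoter: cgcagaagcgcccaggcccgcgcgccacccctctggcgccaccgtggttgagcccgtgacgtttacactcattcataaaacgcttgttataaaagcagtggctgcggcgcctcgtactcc

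Genes of HLA class I and peptide loading were mostly higher, 11 of 14 (78.6%) against 2 lower (14.3%), with a median of 0.28. HLA-B, a class I heavy chain, read 0.66 on both arrays, and 0.66 on another probe at 60% GC. The light chain B2M had a mean of 0.53 and the loading factor TAPBP of 0.51. ERAP1, the peptidase that trims peptides for these molecules, fell (-0.36 and -0.40), as did PDIA3 (mean -0.37). Heavy chain genes are alike in sequence, so their probes may share signal.

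Interferon-stimulated genes showed no common direction, with 12 of 31 higher (38.7%), 6 lower (19.4%) and a median of 0.05. IFI6, a mitochondrial protein, read 0.54 and 0.53.

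Secretory-phenotype genes were also mixed, 10 of 22 higher (45.5%) and 5 lower (22.7%), with a median of 0.08. That median turned to -1.28 in the same-dye comparison across the slides. The cytokine LIF had a mean of 0.51 and the chemokine CCL2 of 0.43. IL6, an inflammatory cytokine, fell to -0.68 and -0.74, a mean of -0.71 (SE 0.03, limma adjusted p 2.30e-08). The chemokine CXCL8 read 0.00 and 0.08 and did not pass the test.

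Among the metabolic lists, sterol and fatty acid synthesis had 14 of 27 higher (51.9%), 5 lower (18.5%) and a median of 0.11, from SC5D (-0.30 and -0.23, turning to 0.15 under median centring) to the mevalonate enzyme MVD (0.45 and 0.72). HMGCS1, which makes the precursor of mevalonate, read 0.32 and 0.31 on its brightest probe but had a mean of -0.31 on another. Hypoxia and glycolysis had 11 of 24 higher (45.8%), 8 lower (33.3%) and a median of 0.04, or -0.35 in the same dye across the slides. Carbonic anhydrase CA9 read 0.74 and 0.72, and hexokinase HK2 -0.44 and -0.51, which turned to 0.07 under median centring.

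Stress and matrix lists had medians of 0.05. Of 20 ATF4 and unfolded protein response genes 7 were higher (35%) and 5 lower (25%). Their median turned to -2.40 in the same-dye comparison across the slides. The endoplasmic reticulum chaperone HSPA5 read 0.38 and 0.37 on its brightest probe but had a mean of -0.55 on another, and CHAC1, a glutathione-degrading enzyme, read -0.35 and -0.41, turning to 0.23 under median centring. Of 14 heat shock chaperones 5 were higher (35.7%) and 4 lower (28.6%). HSPH1 read 0.52 and 0.51, and HSP90AA1 -0.31 and -0.18, with 0.45 under median centring and means of -0.61, -0.32 and -0.10 on further probes. Of 22 extracellular matrix genes 10 were higher (45.5%) and 6 lower (27.3%). The collagen gene COL1A1 read 0.79 and 0.80, and THBS1, thrombospondin 1, had a mean of 0.70. TNC, tenascin C, read -0.37 and -0.42 and turned to 0.30 under median centring.

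The study drew attention to 5 pathways, with genes it chose on these samples, so that their direction is not independent evidence. Hippo signaling had 9 of 17 tested members higher (52.9%) and 3 lower (17.6%). Its median was 0.10, but -0.05 in the same-dye comparison across the slides. CTNNB1 was its highest, and LATS2, a kinase of that pathway, its lowest, at -0.84 and -0.94, a mean of -0.89 (SE 0.04, limma adjusted p 1.03e-08). Wnt signaling, which shares 11 of its 12 tested members with it, CTNNB1 and WNT5A among them, had 6 of 12 higher (50%) and 2 lower (16.7%), with a median of 0.06. Its lowest member TCF7L2 was not well above background in either RNA.

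In the cAMP list 7 of 12 members were higher (58.3%) and 2 lower (16.7%). Its median was 0.21, but -0.16 in the same-dye comparison across the slides. Members ran from PIK3R3, a regulatory subunit of a lipid kinase (-0.26 and -0.49), to VAV3 (1.11 and 1.16). Antigen processing had 6 of 9 higher (66.7%), 1 lower (11.1%) and a median of 0.16, led by HLA-B. NFYC, a subunit of the CCAAT-binding factor, read -0.19 and -0.11 on its brightest probe, which turned to 0.44 under median centring and did not pass the test without array 1 (-0.11), while further probes had means of 0.21 and 0.12. Cell adhesion molecules had 10 of 12 higher (83.3%), 1 lower (8.33%) and a median of 0.24, from the tight junction gene CLDN1 (-0.35 and -0.32) to PVR (1.14 and 1.18).

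By position on the genome, the share of genes at least 1.5-fold higher ran from 1.04% on chromosome 6 to 4.79% on chromosome 16. The share at least 1.5-fold lower ran from 0 of 328 genes on chromosome 22 to 5 of 152 on chromosome 21 (3.29%). Differences between chromosomes were not tested. Median probe GC was 43.3% on chromosome 6 and 45% on chromosomes 16 and 22, and whether position or probe composition goes with these shares was not tested.

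The 10 Gy arrays, also set against RNA of untreated cells, show where 2 Gy differed. Over 30392 probes, 2806 (9.23%) were higher and 3217 (10.6%) lower at 10 Gy than at 2 Gy with a limma adjusted p under 0.05. Among the 68 named genes 36 differed, 18 higher and 18 lower at 10 Gy. When the scans whose label and header disagree were kept in the group of their label, none did.

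By the same test, 2023 of all 21950 genes were higher and 2431 lower at 10 Gy than at 2 Gy. Of the 33 genes induced by DNA damage 29 were higher at 10 Gy than at 2 Gy and 2 lower, and the list's medians were 0.49 and 0.24. These dose differences come from the arrays of protons alone, and in Cy3 on the other slide the RNAs labelled 2 Gy and 10 Gy read alike (GDF15 7.65 and 7.68, CDKN1A 9.38 and 9.37, EGR1 10.23 and 10.31). GDF15 had 0.31 at 2 Gy and 1.27 at 10 Gy, a difference of 0.97 (SE 0.05, limma adjusted p 3.83e-06), and CDKN1A 0.38 and 1.19. The probe of BBC3 under 60% GC had 0.32 and 1.21, and its probe at 85% GC 2.28 and 2.79. Its probe at 60% GC had 0.26 and 0.34, a difference that did not pass the test (adjusted p 0.466 by limma). FDXR had 0.60 and 1.15. TRIAP1 had 0.64 and 1.08, and PCNA of the replication list 0.81 and 1.54. PMAIP1 was lower than untreated at both doses, and less so at 10 Gy (-0.57 and -0.32), whereas MDM2 had -0.21 at 2 Gy and 0.10 at 10 Gy.

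Of the 39 tested G2 and mitosis genes 27 were lower at 10 Gy than at 2 Gy and none higher. Over all 21950 genes 2431 were lower and 2023 higher. CENPA had -0.94 at 2 Gy and -1.44 at 10 Gy, CCNB1 -0.54 and -0.78, and CDC20 -0.12 and -0.50. The rise of CDC25B was smaller at 10 Gy (0.39 and 0.19). Of 21 immediate early genes 12 were lower at the higher dose and 3 higher. EGR1 had 1.15 at 2 Gy and -0.23 at 10 Gy, a difference of -1.38 (SE 0.05, limma adjusted p 7.12e-07), and FOS -0.86 and -1.58.

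Several concordant rises were larger at 2 Gy. The concordant genes were chosen by their values at 2 Gy alone. The same arrays enter the difference, so the choice favours larger changes at 2 Gy. ALYREF had 1.07 and 1.00 on its probes at 2 Gy against 0.35 and 0.46 at 10 Gy, and CTNNB1 1.42 and 0.85 against 0.99 and 0.55. KPNB1 had 1.25 and 0.71 against 0.45 and 0.44, IER2 0.68 and 0.93 against -0.05 and 0.24, and the splicing factor SRSF6 0.80 and 0.63 against -0.24 and 0.10. SLC43A3, a transporter, and AGAP3, a GTPase-activating protein, were also lower at 10 Gy on both probes. NAMPT and SMS fell further at 10 Gy on every probe, while IFRD1 fell less (-0.59 and -0.63 against -0.30 and -0.32). PPP1CA (0.95), BAP1 (1.11), EIF5A (0.96) and SNX17 (0.77) did not pass the test of a difference between doses on their brightest probes. Of the single-probe genes, LBX1 had 2.17 at 2 Gy and 2.79 at 10 Gy, and COX6A2 1.55 and 2.19.

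**Figure D5:**
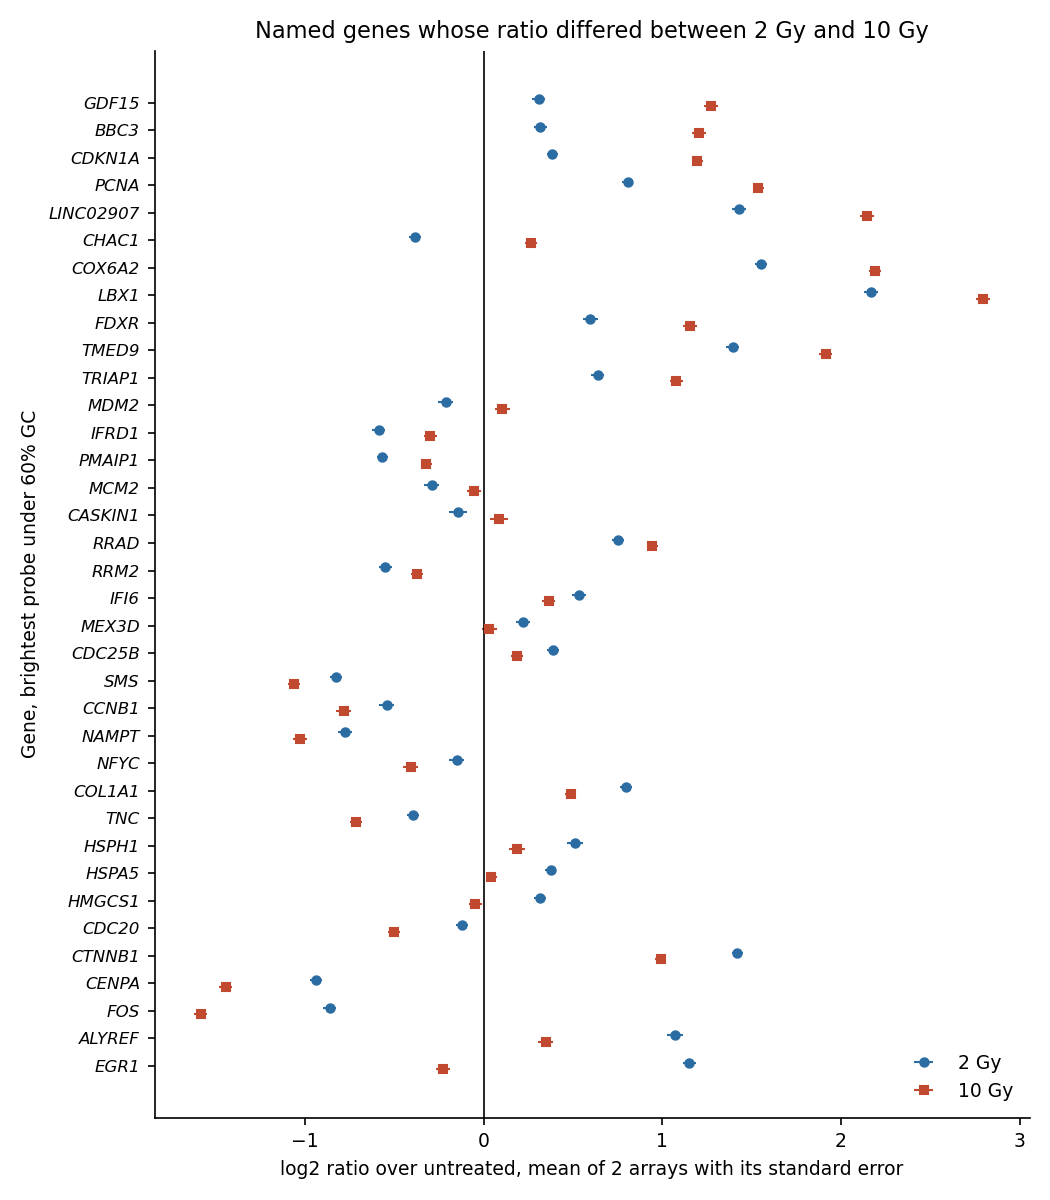
Log2 ratios over untreated RNA at 2 Gy and at 10 Gy for the named genes whose difference between doses passed the test, with limma standard errors. Untreated cells were the control at both doses. The doses lie furthest apart for EGR1 (1.15 at 2 Gy and -0.23 at 10 Gy).

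In the plot of both doses EGR1 and ALYREF lie higher at 2 Gy, and GDF15, BBC3 and CDKN1A at 10 Gy. Each difference comes from 2 arrays per dose on 1 slide.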

How the data were processed

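RNA of U87 MG cells was extracted with Trizol 24 hours after irradiation, 500 ng was amplified, and 2 RNAs were hybridised per array in Cy5 and Cy3. Per the file headers, the scans were quantified by the authors with Agilent Feature Extraction 9.5.3.1, whose scanner files hold mean spot and median background intensities on a linear scale, log10 ratios and flags. The deposited series matrix holds the log10 ratio of the scanner software rounded, with a largest difference under 0.005 and a median of 0 in each of the 24 columns. It served only as an alternative.

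From the intensities, R 4.3.3 with limma 3.58.1 and the data.table package (version 1.17.8) computed log2 Cy5/Cy3. Outlier spots (2.98% to 5.73% per scan) were set aside, background was corrected by normexp with an offset of 50, and a loess curve was fitted within each scan without weight on control spots. Spots of a probe, and then scans sharing an array, were averaged. This gave 8 arrays, 2 per treatment, from 22 of 24 scans. An array was given the treatment that most of its scans are labelled with. The 2 scans whose label and header disagree, being labelled otherwise than their array, were left out. A probe was kept when well above background in either dye on both arrays of any treatment. This held for 30418 of 41000 probes, 30393 of them with a value at 2 Gy. All treatments shared 1 limma fit (residual df 4, prior df 6.79, prior SD 0.0548), with p-values adjusted by Benjamini-Hochberg over all tested probes. GC was counted over the 60 bases of each probe. Genes were named by accession (23434 probes), symbol (2317) or synonym (1040), and 14209 probes kept the array's name. The scripts were tested on simulated data, and figures were drawn with Python 3.11.15 and matplotlib 3.10.9.

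Genes named by rule were the 10 concordant genes with the largest rises and the falls likewise, by their smallest probe, leaving out names that are only a locus or sequence identifier, the 5 largest rises and falls of at least 2-fold among genes with 1 probe under 60% GC, the highest and lowest member of each list with 15 fixed genes, and the 5 largest rises on GC-rich probes of genes with another probe. Some genes this rule takes are not reported here. Members and lists were chosen with earlier results of these data known. Alternatives tried were other background, scaling, filter, GC and fold choices, the scanner's ratios, leaving out each array, other groupings of scans, and a same-dye comparison.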

Additional observations from a re-analysis of the deposited data

Results flagged for a closer look

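The 36 named genes below stand here because limma gave their difference between 10 Gy and 2 Gy, both over untreated RNA, an adjusted p under 0.05. Values are log2 differences, 10 Gy minus 2 Gy. Apart from the fixed genes, the named genes were chosen by their values at 2 Gy, which enter the difference. Higher at 10 Gy were GDF15 (0.97), BBC3 (0.89), CDKN1A (0.81), PCNA (0.73), LINC02907 (0.72), CHAC1 (0.65), COX6A2 (0.64), LBX1 (0.63) and FDXR (0.56). A further group with smaller positive differences held TMED9 (0.52), TRIAP1 (0.44), MDM2 (0.32), IFRD1 (0.29), PMAIP1 (0.25), MCM2 (0.24), CASKIN1 (0.23), RRAD (0.19) and RRM2 (0.18). Lower at 10 Gy were EGR1 (-1.38), ALYREF (-0.72), FOS (-0.72), CENPA (-0.51), CTNNB1 (-0.43), CDC20 (-0.38), HMGCS1 (-0.36), HSPA5 (-0.33) and HSPH1 (-0.33). Smaller negative differences belonged to TNC (-0.32), COL1A1 (-0.31), NFYC (-0.26), NAMPT (-0.25), CCNB1 (-0.24), SMS (-0.24), CDC25B (-0.20), MEX3D (-0.19) and IFI6 (-0.17). On another probe the difference did not pass the test for BBC3 (0.08), RRAD (-0.03), HMGCS1 (0.14), HSPA5 (-0.22), NFYC (-0.16 and 0.06) and MEX3D (-0.07). Higher at 10 Gy were the probe of BBC3 at 85% GC (0.51, adjusted p 0.000631 by limma) and the GC-rich probe of MEX3D (0.66, adjusted p 0.000107 by limma). None of the 36 passed the test when the scans whose label and header disagree were kept in the group of their label.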

How the results depend on the processing

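The counts the report leads with, 64 genes at least 2-fold, 28 concordant genes, 110 GC-rich probes and 36 named genes that differ between doses, stayed within 1.5 times under most alternatives. With each scan only centred on its median they were 972 genes, 502 concordant genes and 205 GC-rich probes. The scanner software's log ratio gave 652 genes and 91 concordant genes, and the deposited series matrix 651 and 91. A limit of 55% GC gave 16 concordant genes. With 1.5-fold in place of 2-fold there were 671 genes and 204 GC-rich probes, and with 2-fold for concordant genes 3, as looser and stricter limits give. The same-dye comparison gave 5031 genes (2833 higher, 2198 lower, 6 of the 64 among them), 905 concordant genes (419 higher, 486 lower, 6 of the 28) and 242 GC-rich probes (67 higher, 175 lower). With the scans whose label and header disagree kept in the group of their label 0 named genes differed between doses. Each dose then holds a scan of an array whose other scans carry the other dose's label. Which of label and header is right was not tested. Leaving out 1 array gave 54 to 77 genes, 28 to 30 concordant genes, 109 to 112 GC-rich probes and 30 to 34 named genes, with the lone array assumed to vary like the others.

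Of 1151 values of named genes under the alternatives 1056 kept direction and call, 31 lost the call, 13 gained it and 51 reversed. With median centring the log2 ratios became CCNB1 0.098, CDC20 0.42, CHAC1 0.23, GNAS 0.14, HK2 0.068, HSP90AA1 0.45, IFRD1 0.050, MCM2 0.25, MDM2 0.15, NFYC 0.44, PRKDC 0.0096, RRM2 0.050, SC5D 0.15 and TNC 0.30. In the same-dye comparison they became ALYREF -0.34, BAP1 -0.43, CA9 -2.55, CASKIN1 0.061, CCNB1 0.26, CDKN1A -2.73, CENPA 1.15, COL1A1 -1.17, COX6A2 -1.54, CXCL8 -1.27, EIF5A -1.73, FBXL12 0.0064, FDXR -1.31, FLNA -1.29, GDF15 -8.01, GNAS 0.11, GPAT4 -0.097, GRINA -1.56, HSP90AA1 0.087, HSPA5 -4.23, LBX1 -0.87, LINC02907 -1.12, MCM2 0.86, MKI67 0.90, NFYC 0.016, PIK3R3 0.35, PMAIP1 1.73, PPP1CA -0.47, RRAD -0.79, RRM2 0.30, SC5D 1.37, SLC35H1 -0.85, SLC38A2 0.23, SNX17 -0.99, TCF7L2 0.61, TMED9 -0.0051 and VAV3 -1.14. List medians changed sign too. Under median centring those of G2/M (0.19) and double-strand break repair (0.24) rose above 0 but not above all genes (0.26). Medians turned in the same-dye comparison for genes induced by DNA damage (-1.02), G2/M (0.70), double-strand break repair (0.29) and secretory phenotype (-1.28). Those of hypoxia (-0.35), ATF4 (-2.40), Hippo (-0.05) and cAMP (-0.16) did so too. The cause was not tested in any of these.

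Chosen after seeing the data were the slide as an estimated block (64, 28, 110 and 36), names as on the array (64 and 28), and each scan session alone, where session 1, with only 1 array left at each of the doses of 2 Gy and 10 Gy, gave 7 named genes that differ and a heat shock median of -0.003. Replicate numbers pair nothing: deviations at 2 Gy and 10 Gy under the same number correlated from -0.239 to 0.225, and every scan as a sample with the replicate block gave 62, 22, 116 and 41. Genes near background in both dyes could not be read.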

Other observations

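Endothelial markers were not well above background in untreated RNA (0 of 4), while 2 of 4 were in irradiated RNA, and of the astrocyte and glial markers 3 of 7 and 4 of 7 were. These counts compare different dyes and were not tested.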
